A study of Bos taurus with 90 samples.

Results

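Oocytes of small bovine antral follicles were compared with oocytes of medium follicles. The comparison took every oocyte library whose label names a small or a medium follicle, without the 3 whose follicles the study removed for mapping rate or mitochondrial share, which left 9 small and 8 medium oocytes, 17 of the 90 libraries of the series. The study collected ovaries of Bos taurus cows at a slaughterhouse and dissected mural granulosa cells (MGCs), the cumulus cells (CCs) closest to the oocyte and the oocyte itself from single follicles. Each oocyte was stripped of its cumulus cells and made into a library of its own with SMART-seq2, which copies polyadenylated RNA into full-length cDNA and amplifies it by PCR. The small follicles measured 3.1 to 3.8 mm and the medium follicles 6.2 to 7.0 mm, all had passed the same inspection of their morphology, and no treatment or genotype set the groups apart. Within them, 3 small oocytes (OS62003, OS62004 and OS62005) and 3 medium oocytes (OM72403, OM71002 and OM72404) came from follicles that the study held to be healthy, by the levels of marker genes in their MGCs, FSHR among them. The other 6 small and 5 medium oocytes are called the other oocytes here. The labels do not tie follicles to cows, and by the methods a cow could give several follicles, so the p-values below measure the spread between follicles and may be too small. The age and the oestrous stage of the cows were not given in the sources used here.

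An oocyte in an antral follicle is arrested at the germinal vesicle stage and has nearly completed its growth. It builds up a store of maternal mRNA that is kept for maturation and the first cleavages, and transcription falls toward silence as the oocyte nears full size. CCs stay connected to it by transzonal projections, through which small molecules, and by some accounts RNA, reach the oocyte.

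The libraries fitted the label of an oocyte as far as identifiers allow. The table lists genes by Ensembl identifier with no names, so markers such as GDF9 or ZP3 could not be looked up. A set of 3226 genes with at least 4 times as many CPM (counts scaled to the total of the library) in large oocytes as in CCs and MGCs held 43.1% to 47.3% of the counts in small oocytes and 42.9% to 47.9% in medium oocytes, against 1.71% to 3.53% in CC pools and 2.03% to 3.23% in MGC libraries. A set of 302 genes above 20 CPM in both CCs and MGCs and at least 50 times lower in large oocytes summed to 320 to 595 CPM in small oocytes and 402 to 892 CPM in medium oocytes. The same genes summed to 110117 to 160846 CPM in CC pools. Both sets of genes were chosen on large oocytes, CCs and MGCs, so the CC and MGC values follow from that choice. Small and medium oocytes entered it at most through the filter on low counts. Their sum in oocytes did not differ between the classes beyond the spread between oocytes (exact permutation test, two-sided, p = 0.176). Total counts ranged from 20559699 to 53173320 in small oocytes and from 8442938 to 40944034 in medium oocytes (exact permutation test, p = 0.300).

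The small oocytes spread their counts over fewer genes than the medium oocytes. The 50 genes with the most counts in a library held 15.1% to 19.97% of the counts in small oocytes (median 17.6%) and 13.2% to 16.1% in medium oocytes (median 14.5%). The ranges overlapped only through OS70701, OS62005 and OM71002. The means were 17.6% ± 1.6 (SD, n = 9) and 14.6% ± 0.8 (SD, n = 8), and the difference of -3.03 percentage points was larger than the spread between oocytes (exact permutation test over all 24310 arrangements, two-sided, p = 0.000329, adjusted p = 0.00263 over 8 measures). The number of genes needed to hold 50% of the counts was 668 ± 97 (SD) in small and 825 ± 53 in medium oocytes (exact permutation test, adjusted p = 0.00450). Genes with a mean above 300 CPM in large oocytes, which numbered 600, took 46.0% ± 1.8 of the counts in small and 43.0% ± 1.3 in medium oocytes (exact permutation test, adjusted p = 0.00450). Large oocytes set the choice of the 600 genes, but their own values were not tested. They had 15.02% ± 1.33 (SD, n = 10) of their counts in the top 50 genes and were thus near the medium oocytes.

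Fewer genes were detected in small oocytes as well. The number of genes with a count ran from 10588 to 15865 in small oocytes (median 15025) and from 14442 to 16641 in medium oocytes (median 15860.5). Small OS50502 with 10588 genes, OS71701 with 12026 and OS70501 with 13037 lay below every medium oocyte, whereas the remaining small oocytes lay within the medium range. The difference was 1586 genes (exact permutation test, p = 0.0306, adjusted p = 0.0490). After every library was thinned to the 8442938 counts of the shallowest one, the numbers were 13789 ± 1841 and 15318 ± 617 (exact permutation test, p = 0.0318). Without OS50502 and OS71701 the difference was 776 genes (exact permutation test, p = 0.0887), while the difference in the share of the top 50 genes was -2.75 percentage points (exact permutation test, p = 0.000622). Genes above 1 CPM numbered 12069 ± 1298 in small and 12919 ± 306 in medium oocytes, which did not pass the test (exact permutation test, adjusted p = 0.113).

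**Figure D1:**
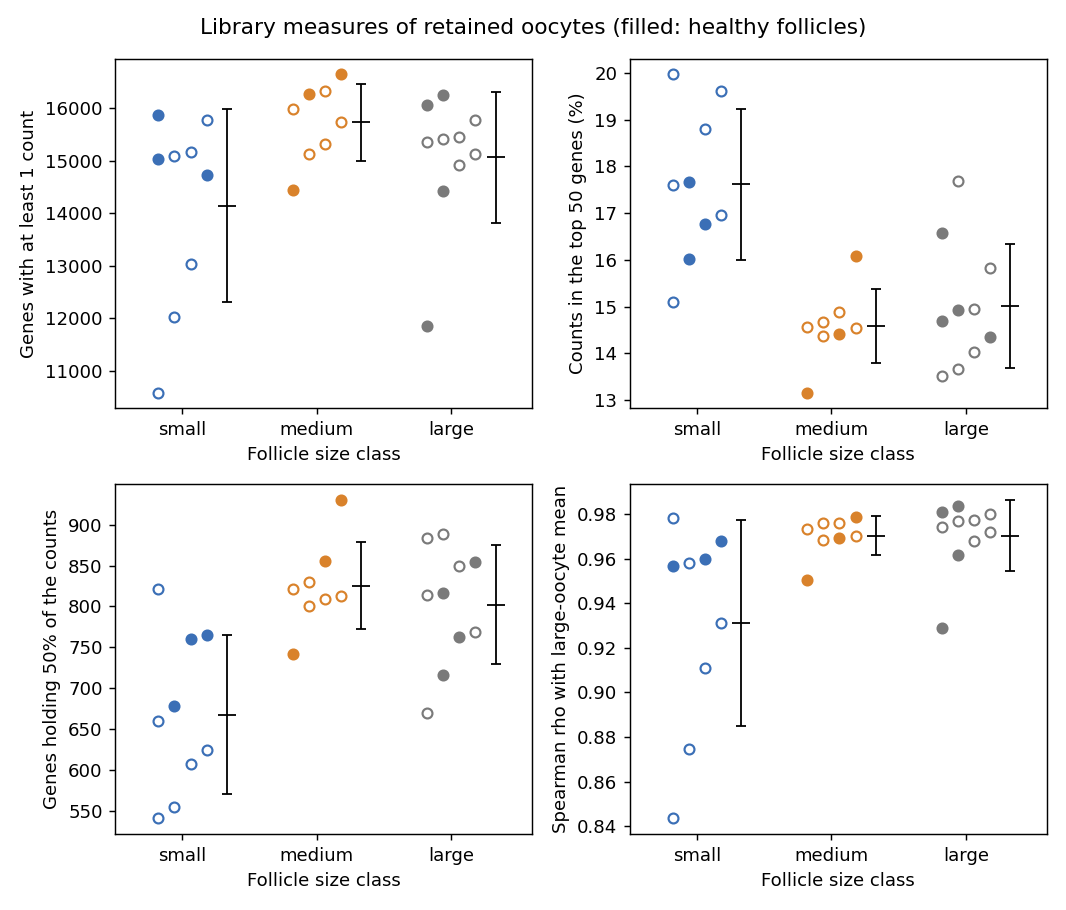
Library measures of each retained oocyte by follicle size class: genes with at least 1 count, percent of counts in the 50 genes with the most counts, number of genes that hold 50% of the counts, and Spearman correlation with the mean log2(CPM + 1) of large oocytes. Points are oocytes, filled ones from healthy follicles, and bars are the mean ± SD. Small oocytes reach 19.97% of counts in the top 50 genes where no medium oocyte exceeds 16.1%, and OS50502 and OS71701 are the lowest small oocytes in genes detected and in the correlation.

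The same direction was seen in both subsets and in the 2 pairs of oocytes that share an identifier prefix. In healthy follicles the top 50 genes held 16.8% ± 0.8 (SD, n = 3) of the counts in small and 14.5% ± 1.5 (n = 3) in medium oocytes (exact permutation test, p = 0.2, where 3 against 3 cannot go below 0.1). In the other oocytes the values were 18.01% ± 1.83 (n = 6) and 14.6% ± 0.2 (n = 5), a difference that passed the test (exact permutation test, p = 0.00433, adjusted p = 0.0173). Sample names begin with a 3-digit prefix whose meaning was not given in the sources used here, and only 2 prefixes occur in both classes. Under one, the share was 16.97% in the small OS70501 and 14.7% in the medium OM70502, and under the other it was 19.6% in OS71701 and 14.4% in OM71704. The medium OM71704 had the lowest total count of all 17 oocytes and still 3094 more genes detected than OS71701. The other small oocytes carry prefixes that no medium oocyte has, so their difference from medium oocytes cannot be told apart from the prefix. The large OL50505, of the prefix of the small OS50501, OS50502 and OS50506, had 17.7%, the highest share among large oocytes. The large OL70703 had 14.3%, beside 15.1% in OS70701 of the same prefix. The measures were not tested with a prefix left out.

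Profiles were then compared between single oocytes, and medium oocytes had the higher correlations with each other. The rank correlation of log2(CPM + 1) between 2 oocytes (Spearman's rho) ranged from 0.794 to 0.960 among small oocytes (36 pairs, median 0.897) and from 0.927 to 0.970 among medium oocytes (28 pairs, median 0.953). Between a small and a medium oocyte it ranged from 0.824 to 0.967 (72 pairs, median 0.927). Each oocyte's correlation with the mean of the large oocytes was 0.931 ± 0.046 (SD, n = 9) in small and 0.970 ± 0.009 (n = 8) in medium oocytes (exact permutation test, p = 0.0204, adjusted p = 0.0409). Among small oocytes, OS70701 was the closest to large oocytes, with a rho of 0.978, and OS50502 the farthest, with 0.844. In healthy oocytes the values were 0.962 ± 0.006 and 0.966 ± 0.014 (n = 3 each, exact permutation test, p = 0.6).

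Few single genes passed an adjusted test of the change from small to medium oocytes. With edgeR's quasi-likelihood test and Benjamini-Hochberg adjustment, 11 of 14936 genes tested, or 0.0736%, differed more than 2-fold at an adjusted p under 0.05, 7 higher and 4 lower in medium oocytes. With no limit on the fold change, 84 genes (0.562%) passed, of which 32 (0.214%) rose and 52 (0.348%) fell. Most of these changes were under 2-fold: the median log2 change was 0.88 among the rising genes and -0.73 among the falling genes. The calls stand at the edge of the threshold, since the adjusted p of all 84 lay between 0.0453 and 0.0499, and 456 genes passed an adjusted p of 0.1. At an unadjusted p under 0.05 (edgeR), 2336 of the 14936 genes passed with no fold limit, of which 1194 fell. Of these genes, 603 passed 2-fold, 413 up and 190 down. With edgeR, 0 genes were called when the prefix or the number of genes detected was a covariate, when OS50502 and OS71701 were left out, or when the 3 small oocytes and 1 large oocyte that share the prefix of OS50502 were left out, while DESeq2 called 39 genes past 2-fold and 726 with no fold limit. Without OS70701, edgeR called 122 and 528. When libraries were scaled by their totals alone, without the TMM factors, the 7 risen and 4 fallen genes past 2-fold became 13 and 0, and the 32 and 52 with no fold limit became 42 and 13, as the median change of all genes moved from 0.05 to 0.15.

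**Figure D2:**
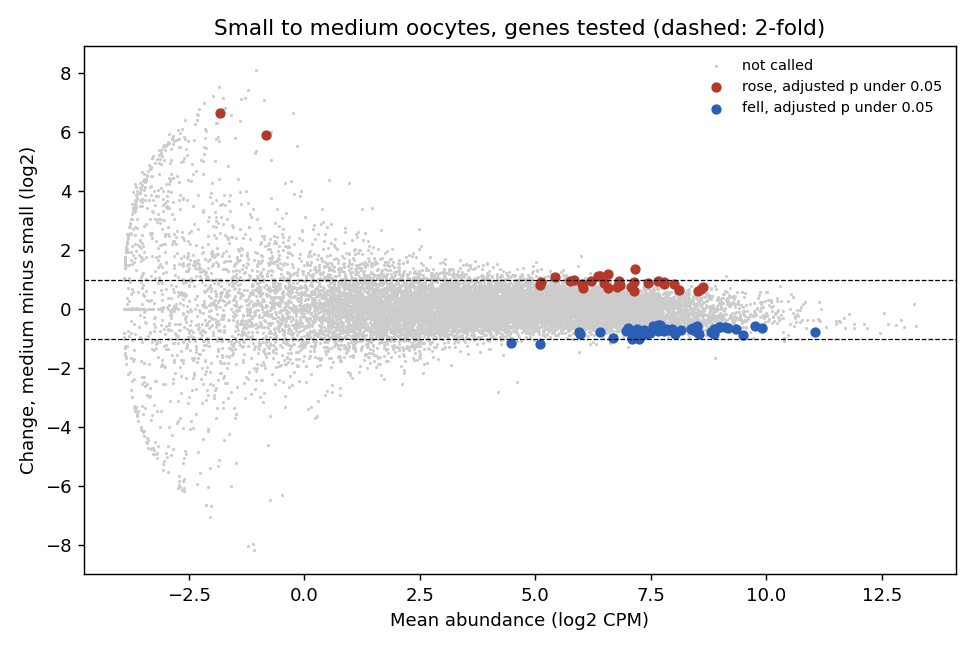
Log2 change from small to medium oocytes against the mean abundance in log2 CPM for the 14936 genes tested, with dashed lines at 2-fold. Red points rose and blue points fell at an adjusted p under 0.05 (edgeR quasi-likelihood). Almost all of the 84 called genes lie on the right, among genes with many counts, and 11 lie beyond the dashed lines, where genes with few counts scatter most widely without a call.

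ENSBTAG00000016174 had the smallest p among the 7 genes called as risen past 2-fold. Its CPM was 23.9 to 165 in small oocytes (median 51.8) and 73.1 to 238 in medium oocytes (median 174), against a median of 206 in large oocytes. In 7 of the 9 small oocytes it was below the lowest medium oocyte, and the small OS70701, at 165 CPM, lay in the medium range. The log2 change was 1.36 ± 0.29 (SE, edgeR adjusted p = 0.0453), with 1.64 in healthy and 1.21 in other oocytes. Across the alternative settings the log2 change ran from 1.21 to 1.68 and the adjusted p of edgeR or DESeq2 from 0.00139 to 0.229.

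ENSBTAG00000005012 rose as well. It was 29.7 to 102 CPM in small oocytes (median 47.7) and 85.8 to 171 CPM in medium oocytes (median 106). Again OS70701 was the exception, and the other 8 small oocytes lay below every medium oocyte. The log2 change was 1.12 ± 0.25 (SE, edgeR adjusted p = 0.0453). Over the settings run it ranged from 0.84 to 1.29, and the adjusted p of edgeR or DESeq2 from 0.00203 to 0.310. In large oocytes the gene ranged from 33.03 to 144 CPM (median 95.6), the lowest being OL50505.

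ENSBTAG00000000808 had the smallest p among the 4 genes called as fallen past 2-fold. Its CPM was 134 to 318 in small oocytes (median 222) and 66.6 to 180 in medium oocytes (median 117), and 6 of the 9 small oocytes exceeded the highest medium oocyte. The log2 change was -1.02 ± 0.21 (SE, edgeR adjusted p = 0.0453), and -0.90 when libraries were scaled by totals alone. Over the settings run it ranged from -1.34 to -0.90, and the adjusted p of edgeR or DESeq2 from 0.000921 to 0.399. Large oocytes had a median of 114 CPM, close to that of medium oocytes.

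Among the 8 other genes past 2-fold, 6 had a count in every small and medium oocyte. Their mean CPM ran from 26.97 to 203 in small oocytes, and their log2 changes from -1.16 to 1.18. A pair of rising genes were nearly absent: one had 0 counts in the 9 small oocytes together and 106 counts in 6 of the 8 medium oocytes. Against the limit of 3 counts over the small oocytes together, or 0.00978 CPM, its pooled level in medium oocytes was at least 47.6-fold higher. The other had 2 counts in 1 small oocyte and 186 counts in 7 medium oocytes. Such limits cover counting error only, because reads amplified without molecular identifiers are not independent molecules.

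**Figure D3:**
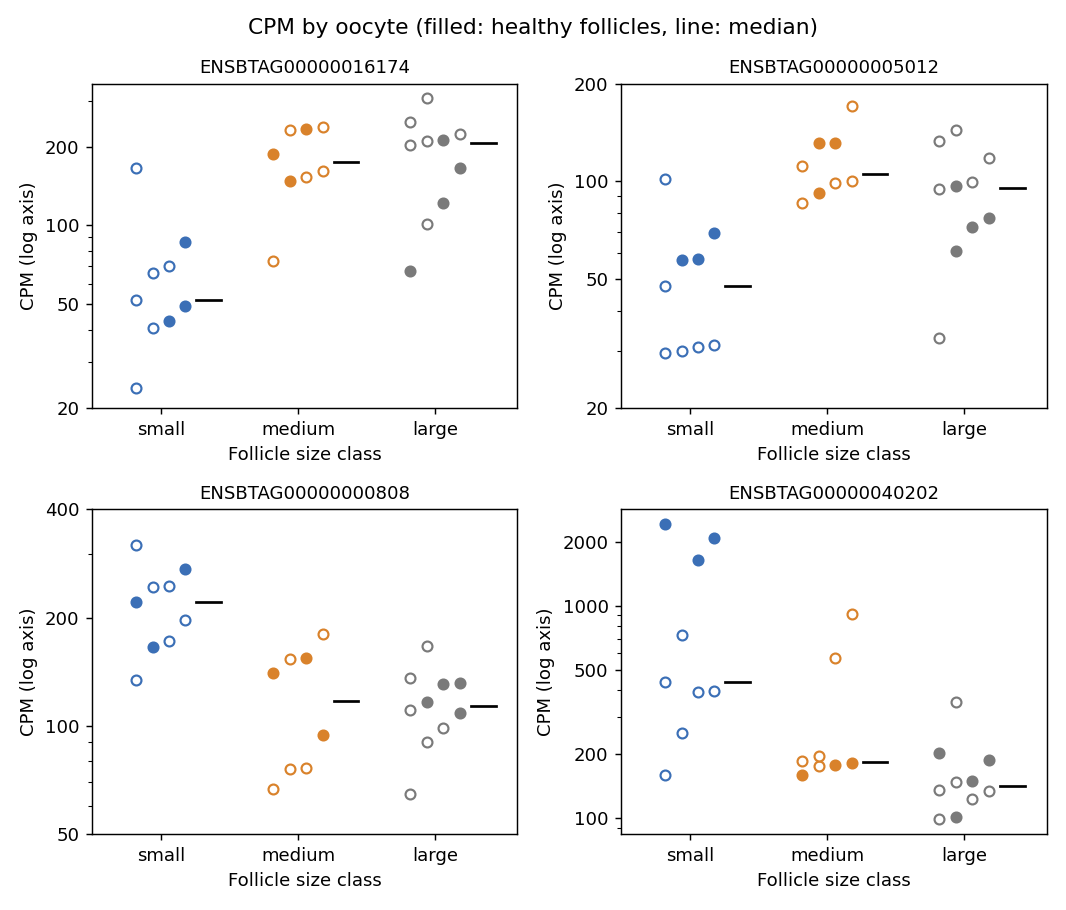
CPM of ENSBTAG00000016174, ENSBTAG00000005012, ENSBTAG00000000808 and ENSBTAG00000040202 in each retained oocyte on log axes, by follicle size class. Filled points are healthy follicles and lines are medians. OS70701 is the highest small oocyte in the first 2 panels and the lowest in the other two, and in the last panel the 3 healthy small oocytes, at 1637 to 2418 CPM, lie above all other oocytes.

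The 84 genes were followed oocyte by oocyte, with large oocytes as the reference level. Since these genes were chosen on the small and medium oocytes, the values describe them and test nothing. For the 32 rising genes, the median log2(CPM + 1) relative to the mean of large oocytes was -1.11 to -0.06 in small oocytes and -0.03 to 0.44 in medium oocytes. For the 52 falling genes it was 0.06 to 0.82 in small and -0.30 to 0.17 in medium oocytes. The medium oocytes were therefore around the level of large oocytes, and 8 of the 9 small oocytes stood apart. The exception was OS70701, at -0.06 and 0.06. Among the 10 large oocytes, OL50505 was placed with the small ones, at -0.69 and 0.37. OL72101, at -0.26 and 0.16, was also within both ranges of the small oocytes, and its prefix is that of the medium OM72104. OL50505 carries the same prefix as the small OS50501, OS50502 and OS50506. No medium oocyte carries this prefix, so how these small oocytes differ from medium ones cannot be told apart from the prefix. In the fit with the prefix as a covariate, 78 of the 84 genes kept their direction at an unadjusted p under 0.05. Between OS70501 and OM70502, of one prefix, the 32 rising genes were all higher in the medium oocyte and 51 of the 52 falling genes were lower, and between OS71701 and OM71704 the numbers were the same, although these oocytes were also among those that chose the genes.

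**Figure D4:**
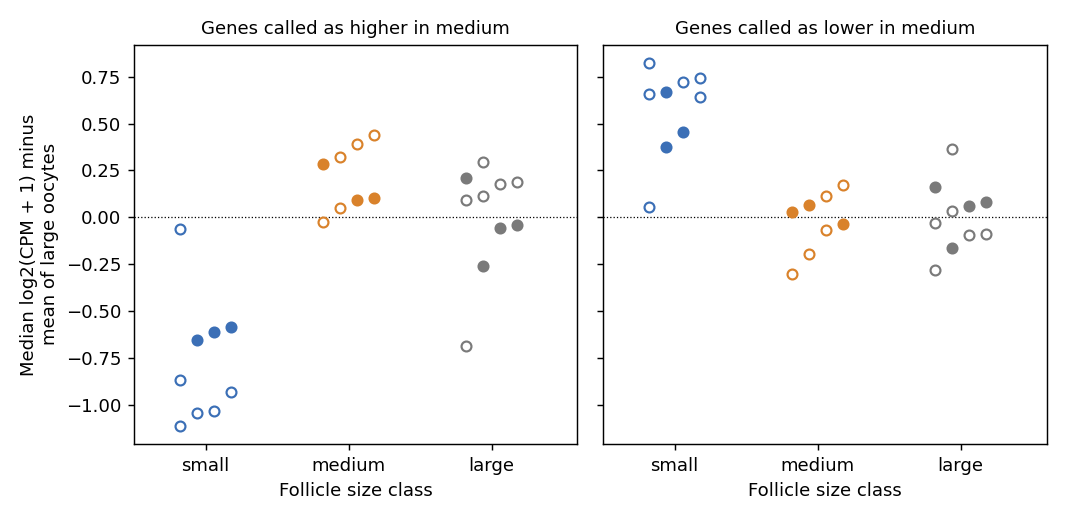
Median log2(CPM + 1) of the 32 genes called as higher (left) and the 52 called as lower (right) in medium oocytes, minus the mean of large oocytes, for each retained oocyte by size class. Filled points are healthy follicles. Medium oocytes lie around 0, 8 of 9 small oocytes lie apart from them, and 1 large oocyte, OL50505, lies at -0.69 and 0.37. The large OL72101 lies at -0.26 and 0.16.

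Groups of genes were then set by their levels in large oocytes, CCs and MGCs, which did not enter the comparison of means. CPM is not divided by gene length, so these groups rank genes by counts and not by molecules. Genes above 300 CPM in large oocytes had the lowest median change and the most calls for their number: 22 of 600 passed (3.67%, against 0.562% of all genes), 5 up and 17 down, and the median log2 change was -0.15 against 0.05 over all genes tested. Of genes at 100 to 300 CPM, 41 of 1831 passed, 14 up and 27 down, with a median of -0.01. Of genes at 30 to 100 CPM, 17 of 3174 passed, 11 up and 6 down, with a median of 0.10. Of the 9331 genes at or below 30 CPM, 4 passed. The counts that a gene has set how small a change can pass, so the shares of called genes reflect abundance as well. The median of the 600 genes minus that of all genes was -0.20, and likewise -0.20 with totals as the scale. It was -0.05 with the genes detected as a covariate, -0.43 with the prefix as a covariate, and -0.13 without OS50502 and OS71701. In healthy oocytes the median of the 600 genes was -0.05 and in other oocytes -0.16.

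By cell type, 17 of 3226 oocyte-enriched genes passed (0.527%, close to the 0.562% of all genes), 8 up and 9 down, with a median log2 change of -0.03. Of the 349 oocyte-enriched genes above 300 CPM, 4 rose and 2 fell (1.72%). Somatic-enriched genes, with at least 4 times the CPM in both CCs and MGCs, had 3 of 2731 called (0.110%), and 64 of the 8979 genes in between were called (0.713%), 22 up and 42 down.

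**Figure D5:**
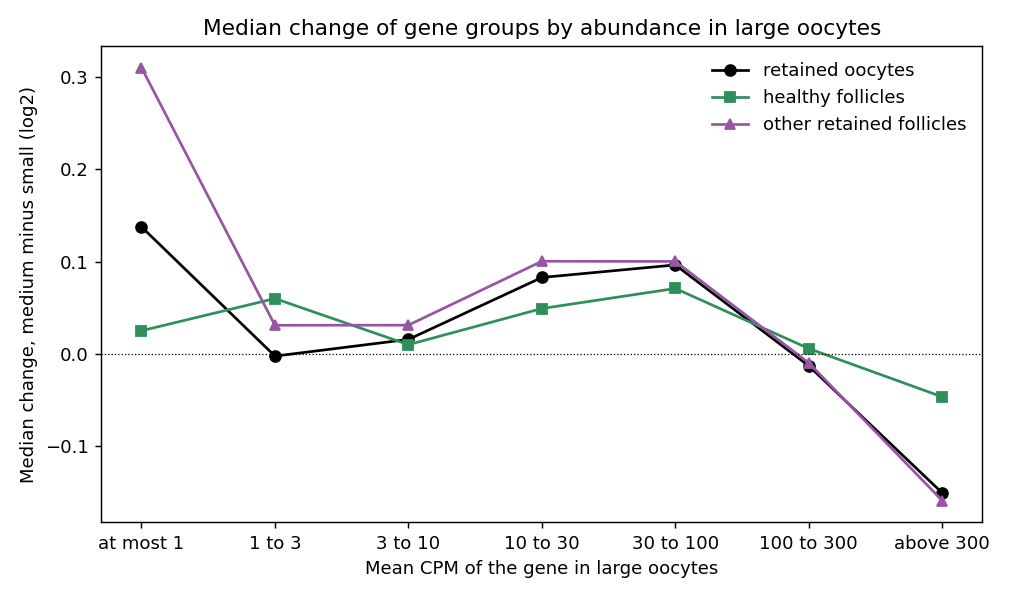
Median log2 change from small to medium oocytes for genes grouped by their mean CPM in large oocytes, in all retained oocytes (circles), in healthy follicles (squares) and in the other retained follicles (triangles). The line of retained oocytes ends at -0.15 for genes above 300 CPM, that of the others at -0.16 and that of healthy follicles at -0.05.

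The ranges of CPM in small and medium oocytes did not overlap for 27 genes (0.181% of genes tested). Medium oocytes were higher in 25 of them (0.167%) and lower in 2 (0.0134%). These CPM were scaled by library totals alone, without the TMM factors. On that scale the median change of all genes was 0.15 against 0.05 with TMM. At an adjusted p under 0.05 (edgeR), 42 genes rose and 13 fell on it, so it favours rises. The 25 genes had log2 changes of 0.51 to 4.29 (median 0.91), and 4 of them were among the called genes. Both genes with lower values were called, at log2 changes of -0.66 and -0.64.

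In the healthy subset, 1 of 14760 genes (0.00678%) was called, and it fell. This gene, ENSBTAG00000040202, had 2086, 2418 and 1637 CPM in the small oocytes OS62003, OS62004 and OS62005 and 177, 182 and 159 CPM in the medium oocytes OM72403, OM71002 and OM72404. The log2 change was -3.61 ± 0.28 (SE, edgeR adjusted p = 0.000232), and the gene was still called when any 1 of the 6 oocytes was left out, with log2 changes of -3.77 to -3.46. In the other small oocytes it ranged from 160 to 727 CPM (median 394) and in the other medium oocytes from 176 to 911 CPM (median 196), with a log2 change of -0.12 ± 0.46 (SE, edgeR adjusted p = 0.956). Over all retained oocytes the change was -1.64 ± 0.46 (SE, edgeR adjusted p = 0.0762), and large oocytes ranged from 98.4 to 352 CPM. Somatic cells had hardly any counts of this gene, with at most 0.924 CPM in CCs and 0.0646 CPM in MGCs of small and medium follicles. The change in healthy oocytes minus that in the others was -3.53 ± 0.70 (SE, edgeR), with an unadjusted p of 2.47e-05 that did not pass the correction (adjusted p = 0.369). The 3 healthy small oocytes are also the only small oocytes of their prefix, so health and prefix cannot be told apart. No medium oocyte carries that prefix, so in this subset the change from small to medium cannot be told apart from prefix either. Leaving out single oocytes cannot separate them.

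In the other oocytes, 0 of 14832 genes (0%) were called by edgeR, with 822 past 2-fold at an unadjusted p under 0.05 and 119 called by DESeq2. Without OS70701, edgeR called 215. For the difference between the subsets, 0 of 14936 genes (0%) were called by edgeR, 467 passed 2-fold at an unadjusted p under 0.05, and DESeq2 called 29. By edgeR's estimate, the biological coefficient of variation was 0.754 in healthy, 0.853 in other and 0.821 in all retained oocytes.

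Healthy and other oocytes share no library, and their small and medium members share no prefix, so each subset could be read in the other. Of 9049 genes with a mean of at least 3 on the log2 CPM scale, 738 had an unadjusted p under 0.05 in healthy oocytes (edgeR). Of these, 603 (81.7%) changed in the same direction in the other oocytes, beside 63.9% of all 9049 genes. The 467 that were higher in healthy medium oocytes had a median log2 change of 0.87 there and 0.42 in the others, and the 271 lower ones had -0.66 and -0.37. When 1497 genes were chosen in the other oocytes, 1143 (76.4%) had the same direction in healthy oocytes. Genes are not independent replicates, so no test was made of these shares.

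Finally, the 84 genes were read in the somatic cells of the same follicles. At an adjusted p under 0.05 with no fold limit (edgeR), 0 of the 84 passed in CCs, where 0 of 14912 genes did (0%), and 0 of the 84 in MGCs, where 70 of 14712 did (0.476%). At an unadjusted p under 0.05, 28 of the 84 passed in CCs beside 1780 of the 14912 (11.9%), and 15 in MGCs beside 2043 of the 14712 (13.9%). All 28 were negative in CCs, 25 of them falling and 3 rising in oocytes, beside 688 of the 1780. In MGCs 2 of the 15 were negative, beside 1149 of the 2043. The 52 genes that fell in oocytes had a median log2 change from small to medium follicles of -0.62 in CCs. This stood beside 0.07 over all genes tested in oocytes and -0.09 over the 600 genes above 300 CPM in large oocytes. Of the 52 genes, 48 (92.3%) were negative in CCs, beside 44.7% of all genes. In MGCs their median was 0.22, beside 0 over all genes and 0.26 over the 600 genes above 300 CPM in large oocytes, and 8 of them (15.4%) were negative, beside 49.9% of all genes. The 32 rising genes had medians of -0.18 in CCs and 0.08 in MGCs, and 21 of them (65.6%) were negative in CCs and 15 (46.9%) in MGCs. CC pools and oocytes were amplified by the same protocol and came from the same follicles, and the part of this in the shared direction was not tested.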

How the data were processed

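RNA-seq was made from single oocytes, CC pools and MGCs of the same follicles. Per the methods, the authors used STAR on trimmed paired-end reads with the genome ARS-UCD1.2, kept reads with one mapping place and ran featureCounts over exons, whereas the submitters' processing notes name HISAT2 2.2.1, and which made the table was not settled. The deposited values are raw counts per gene for 27270 Ensembl identifiers, without normalization or molecular identifiers. Among counts of 1 to 20, 54.9% to 68.9% were even in the 17 oocytes, so both mates of a pair may have been counted. The identifiers could not be paired with names, so gene lists, cell type markers and the mitochondrial share were not analysed here, and no sequences are shown.

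Counts were tested with edgeR 4.0.16 (R 4.3.3): TMM scaling, a quasi-likelihood fit over 27 retained oocytes (9 small, 8 medium, 10 large) that share one estimate of spread, contrast medium minus small, and Benjamini-Hochberg adjustment. Genes above 1 CPM in at least 15 retained libraries of a cell type were kept (15134), and those with a count in the oocytes fitted were tested. A fold change above 2 with an adjusted p under 0.05 was the call, as in the methods, which used DESeq2 (here 1.42.0, an alternative). The standard error is the log2 change divided by the square root of F. Healthy (10 libraries) and other oocytes (17) were fitted alone, and their difference in one fit. CC fits left out 1 pool with few genes counted (26 of 27). Library measures were tested by exact permutation and adjusted over 8 measures. Genes were named by the smallest p among called genes in each direction and among calls in healthy follicles, limited to 2 rising and 2 falling, since names were lacking. The edgeR fit was also run on simulated counts with known changes. These held no effect of prefix or cow, so the behaviour of the fit under such effects was not tested. Alternatives were DESeq2, its size factors, other filters, other sets of libraries, covariates and each oocyte left out. The measures after the first 3, thinning, scaling by totals, and fits without OS50502 and OS71701 or without prefix 505 were chosen after seeing the data. The oocytes compared and the groups were chosen with earlier results of these data known.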

Additional observations from a re-analysis of the deposited data

Results flagged for a closer look

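Some values stood apart. In 24 groups of oocytes checked for a single value far from the others, where chance gives about 1 in 20, there were 2. The medium oocyte OM71002 had a Spearman correlation of 0.950 with the mean of large oocytes, below the other medium oocytes. The small oocyte OS70701 had 165 CPM of ENSBTAG00000016174, above the other small oocytes. The change of ENSBTAG00000040202 differed between healthy and other oocytes by -3.53 on the log2 scale (edgeR quasi-likelihood, unadjusted p = 2.47e-05), which did not pass the correction over all genes (adjusted p = 0.369).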

How the results depend on the processing

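The calls of single genes depended on the processing, and the shares of counts did so less. Over retained oocytes, the 11 genes past 2-fold became 39 with DESeq2, 84 with no fold limit and 603 at an unadjusted p, and the 84 genes with no fold limit became 726 with DESeq2 and 55 with libraries scaled by totals, under which the genes past 2-fold were 13 risen and 0 fallen. Both numbers were 0 with no filter on low counts, with only small and medium libraries in the fit, with all 30 oocytes, with the prefix or the genes detected as a covariate, without OS50502 and OS71701, and without the oocytes that share the prefix of OS50502. Leaving out 1 oocyte at a time gave 0 to 122 genes past 2-fold and 0 to 528 with no fold limit, the highest without OS70701. The number past 2-fold was 11 to 15 without OS62005, OS62003, OM62201 or OM71002. OS70701 aside, it was 0 or 1 without any of the remaining oocytes. The directions of the 4 named genes were kept under every setting run.

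In healthy oocytes, the 1 gene called became 56 with DESeq2, 328 at an unadjusted p and 2 with only small and medium libraries. In the other oocytes, 0 became 119 with DESeq2 and 822 at an unadjusted p, and 0 to 215 when 1 oocyte was left out. For the difference between the subsets, 0 became 29 and 467.

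The difference in genes detected was 577 in healthy oocytes alone, 27.3 with the 3 removed oocytes added and 776 without OS50502 and OS71701, none past an exact permutation p of 0.05, and 1142 to 1801 with 1 oocyte left out, where the test was lost without OM72104, OM70502, OM72403 or OM72404. That in genes above 1 CPM was 509 to 983 with 1 oocyte left out. In healthy oocytes alone, where the test cannot pass, the differences were -2.27 percentage points for the top 50 genes, -2.13 for genes above 300 CPM, 108 for genes holding 50% of the counts and 0.00465 for the correlation with large oocytes. With the removed oocytes added, genes holding 50% of the counts differed by 77.8, the correlation turned to -0.0182, and the somatic genes differed by 350 CPM, which then passed. The median of genes above 300 CPM minus that of all genes was -0.20, and -0.43 with the prefix and -0.05 with the genes detected as a covariate, -0.13 with all 30 oocytes and without OS50502 and OS71701, and -0.14 without the oocytes that share the prefix of OS50502. The cause of these changes was not tested.

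The labels give no replicate numbers that pair small with medium oocytes. The nearest to a block was the fit with the identifier prefix as a covariate, in which 2 prefixes hold both classes and which called 0 genes.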
